A study of Mus musculus with 2 samples.

Results

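A set of 47 genes of DNA replication and S phase, chosen by symbol for their known roles and found in every case among the 32285 genes of the library, was examined in cultured mouse aortic vascular smooth muscle cells (VSMCs). The primary VSMCs came from commercial stocks prepared from aortas of C57BL/6 mice and were grown on 6-well plates in 4 groups: young (from mice of 12 weeks), old (from mice of 58 to 78 weeks), young with 0.1 µM angiotensin II (AngII, a vasoconstrictor peptide) for 48 h, and old transfected with siRNA against Piezo1, a mechanically gated calcium channel, at 20 nM by the labels for 48 h (the study's text also gives a different dose). The study names old cells given non-targeting siRNA as controls in other assays but does not say so of the sequenced old cells, and its sources do not tell apart replicate cultures or give the number of animals behind a group. With 1 culture a group as far as can be told, the groups are compared by their values and without a test. The groups were marked with hashtag antibodies, mixed and sequenced as 1 droplet library, in which molecular barcodes (unique molecular identifiers, UMIs) count each transcript a single time. Group names follow the numbers in a schematic of the study, which gives them without naming tags: tag 1 young, tag 2 old, tag 3 young + AngII and tag 4 old + siPiezo1.

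DNA replication begins with licensing, in which the MCM2-7 helicase is loaded on origins by CDC6 and other factors and is then activated with CDC45 and GINS. DNA polymerases, their sliding clamp PCNA and enzymes of nucleotide and histone supply then copy and repackage the genome, while checkpoint and repair proteins protect the forks. Most of these genes are transcribed around the G1/S transition by E2F factors, and VSMCs, quiescent in the healthy artery, express them when they proliferate in culture or after injury.

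A barcode counted as a cell with at least 2218 UMIs and 200 genes, which held for 13045 cells with a median of 7915 UMIs. By the number of cells with only that tag above its cutoff, tag 1 had 3144 cells, tag 2 had 497, tag 3 had 1500 and tag 4 had 1529, with median depths of 6816.5, 10663, 9453.5 and 9792 UMIs. A further 5307 cells carried no tag above its cutoff and 1068 carried several. Levels are UMIs of a gene per 1000000 UMIs of all cells of a tag (CPM), and the 95% intervals in brackets are exact Poisson for levels, exact binomial on the pair of counts for ratios and exact Clopper-Pearson for shares of cells. They cover counting error within the library and not the spread between cultures. Those for levels and ratios take each UMI as independent, so they also leave out the spread between cells.

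Young cells (tag 1) held Piezo1 at 71.6 CPM (68.2 to 75.01) and AngII-treated cells (tag 3) at 108 CPM (103 to 114). Old cells (tag 2) were at 89.6 CPM (82.0 to 97.9) and tag 4 at 86.9 CPM (82.4 to 91.5), overlapping intervals that leave the siPiezo1 label unchecked by its target, and these cells are called the cells labelled siPiezo1. The study itself reports lower Piezo1 after the siRNA in its single-cell data, by quantitative PCR and by immunostaining. A clear drop was not seen between tags 2 and 4 here. Of 9 smooth muscle markers, all were detected in every tag, with summed levels from 1019 CPM in tag 4 to 2133 CPM in tag 2. Myh11, the defining marker of contractile smooth muscle, was low, at 1.94 to 7.89 CPM. The 8 macrophage markers summed to 16.1 to 26.0 CPM. Of these, C1qa and C1qb were at 0 in every tag, Cd14 at 4.49 to 19.9 CPM and Csf1r at 2.05 to 8.62 CPM. The 8 endothelial markers summed to 4.49 to 9.12 CPM, with Tie1 at 0 in every tag and Kdr at 1.18 to 5.39 CPM. The fibroblast list, led by Dcn and Col1a1, which cultured VSMCs also express, summed to between 774 and 1114 CPM. Within it, Pdgfra was at 63.8, 31.0, 34.7 and 57.2 CPM in tags 1 to 4. Dpt was at 5.56 to 16.5 CPM, Cd34 at 2.95 to 17.4 CPM and Lum at 1.41 to 6.21 CPM. Whether fibroblasts were among the cells was not tested. The 7 epithelial markers summed to 17.0, 34.6, 44.8 and 18.3 CPM in tags 1 to 4, led by Perp and Upk1b, with Krt5 at 0 in tags 2 to 4. The tags also differed in ways the group names do not describe. Cells with Y-linked UMIs but none of Xist (Y-only cells) made up 54.1% of tag 1, 19.5% of tag 2, 55.5% of tag 3 and 13.8% of tag 4, and cells with the reverse 4.90%, 63.0%, 6.27% and 66.8%. The median mitochondrial share of UMIs was 1.08%, 1.84%, 0.224% and 1.86% in tags 1 to 4.

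All 47 genes were detected in every tag. Their mean levels over the 4 tags ran from 1.94 CPM for Ung to 189 CPM for Pclaf, and 45 passed the floor of a mean of 5 CPM used for counts, Dscc1 and Ung being the genes under it. Summed over the set, tag 1 was at 1347 CPM (1333 to 1362), tag 2 at 1526 (1494 to 1559), tag 3 at 1904 (1882 to 1926) and tag 4 at 1721 (1701 to 1742). The young cells were thus the lowest and the young + AngII cells the highest. The 4 counting intervals did not overlap, but they leave out the spread between cells. Gene by gene the order was similar: 36 members were lowest in tag 1 and 35 were highest in tag 3. Free RNA gives UMIs in every droplet, and 1299325 barcodes with 1 to 100 UMIs, too few for a cell, summed to 1891 CPM for the set. This is close to the level of tag 3, and Mcm2, at 50.6 CPM there, stood above its level in all 4 tags. Since no cell type in the culture should lack these genes, the share of their UMIs that came from free RNA was not measured.

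**Figure D1:**
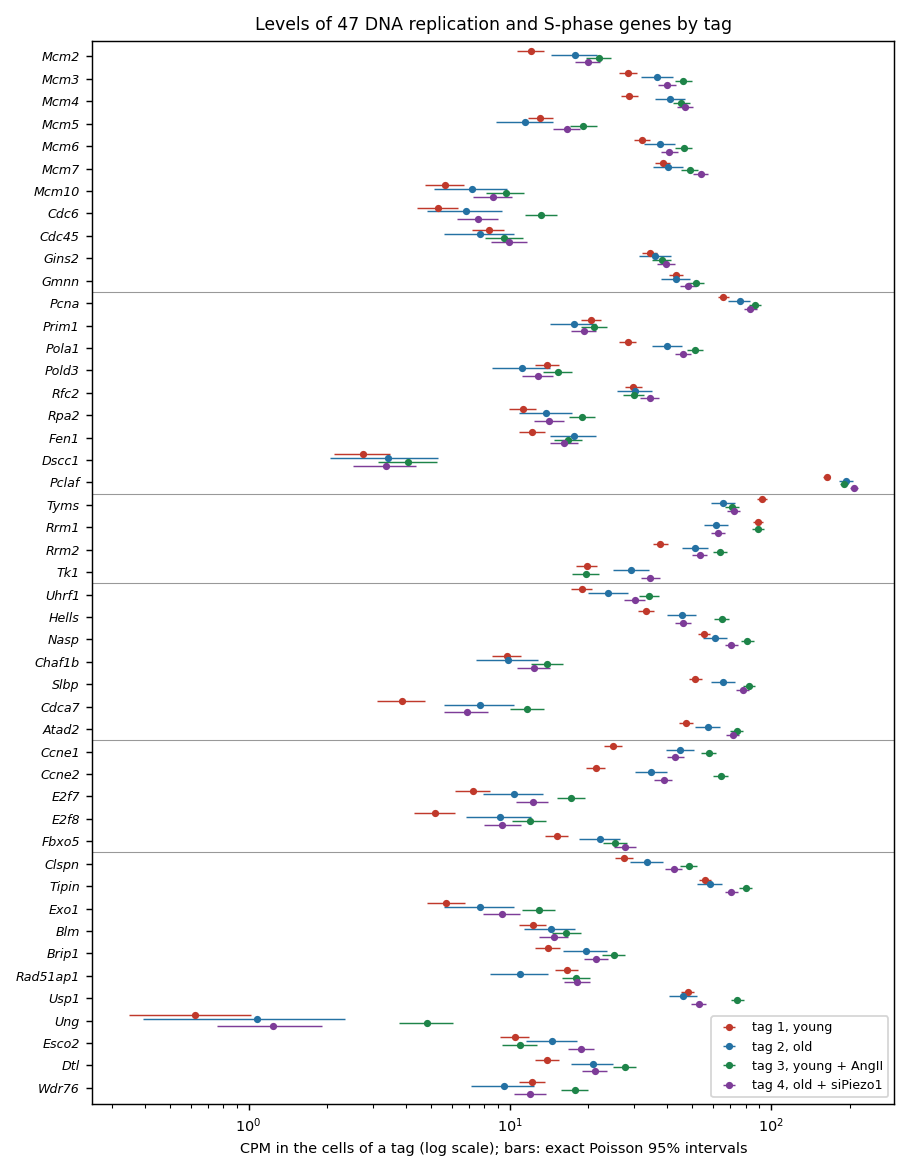
Level of each of the 47 genes in CPM on a log axis, by tag, with exact Poisson 95% intervals, in blocks by role: licensing, polymerase and clamp, nucleotide supply, chromatin and histones, S phase entry, and fork protection (top to bottom). Tag 1 (red) lay leftmost for 36 genes and tag 3 (green) rightmost for 35, whereas Tyms was highest in tag 1.

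As the genes are known as E2F targets, their promoters were searched for the E2F consensus in its 8-letter forms TTTCCCGC, TTTCGCGC, TTTGCCGC and TTTGGCGC, on both strands, in the 250 bases before the RefSeq start sites (GRCm38.p6). Of the 47 members, 36 had a RefSeq promoter, and 10 of these (27.8%) held a match, compared with 2.16% of all 27025 genes with a promoter and 4.07% of those past the CPM floor. Counted by start site, 25% of 40 member promoters and 1.86% of 32851 promoters in all held it. The matching members were Hells, Mcm7, Pola1, Mcm6, Uhrf1, Dtl, Mcm5, E2f7, Cdc6 and Cdca7. The windows around the matches of the 6 with the most UMIs are shown 5′ to 3′ on the gene's strand, with the matched letters in capitals.
Hells, a chromatin remodeller, chr19:38930908-38930955, plus strand: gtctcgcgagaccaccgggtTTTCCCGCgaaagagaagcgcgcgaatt
Mcm7, a helicase subunit, chr5:138172021-138172068, minus strand: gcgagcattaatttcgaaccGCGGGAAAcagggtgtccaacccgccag
Pola1, the catalytic subunit of polymerase alpha, chrX:93632266-93632313, minus strand: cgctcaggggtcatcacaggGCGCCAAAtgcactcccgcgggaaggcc
Mcm6, a helicase subunit, chr1:128359725-128359835, minus strand: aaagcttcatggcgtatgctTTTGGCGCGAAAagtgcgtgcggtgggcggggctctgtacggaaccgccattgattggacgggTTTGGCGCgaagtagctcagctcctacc
Uhrf1, which maintains DNA methylation, chr17:56304108-56304155, plus strand: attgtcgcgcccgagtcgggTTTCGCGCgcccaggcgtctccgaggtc
Dtl, a ubiquitin ligase adaptor that acts in S phase, chr1:191575545-191575572, minus strand: atcagaaagcgtgacgtcagTTTGGCGC
Mcm6 held 3 matches, of which 2 on opposite strands overlap and form the 12-letter run in capitals. The match in Dtl lies 1 to 8 bases before the start and that in Uhrf1 178 to 185 bases before its start site at 56304313. Uhrf1 and Mcm7 each have another RefSeq start site, whose 250 bases upstream hold no match. With the bases just after the start site included, 14 of the 36 members held a match, as did 35% of member promoters and 2.26% of all promoters. A match describes the letters only, and no binding was measured.

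To describe these genes in cells given AngII, used in the study to model premature ageing, tag 3 was compared with tag 1. The phrase "with AngII" names this comparison. With 1 culture a group as far as can be told, AngII cannot be told apart from other differences between the cultures. The replication genes were higher in the AngII-treated cells: 23 of the 45 members past the floor were at least 1.5-fold higher, where 7.54% of all 10263 genes past it were, and none was 1.5-fold lower, where 8.49% of genes were. The median ratio of the members was 1.55, against 1.03 over all genes, and 43 of the 45 had a ratio above 1. The summed level was 1.41 times that of the untreated young cells (1.39 to 1.44). The genes of S phase entry had the highest ratios and those of nucleotide supply the lowest.

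All 5 genes of S phase entry and E2F timing were at least 1.5-fold higher with AngII. Ccne2, which encodes cyclin E2, a CDK2 partner at the G1/S transition (chr4:11191351-11204779, GRCm38), was at 21.3 CPM in tag 1, 34.8 in tag 2, 64.2 in tag 3 and 38.8 in tag 4, a ratio of 3.01 (2.70 to 3.36) with AngII. Its paralog Ccne1 (chr7:38097984-38107534) was at 24.9, 45.0, 57.8 and 43.1 CPM, a ratio of 2.32 (2.09 to 2.58). Both cyclins were lowest in the young and highest in the AngII-treated cells, and the counting intervals of these 2 groups did not overlap. The atypical E2F repressors, which shut down E2F targets later in S phase, were also higher: E2f7 was at 7.21, 10.4, 17.1 and 12.2 CPM (2.38, 1.95 to 2.90) and E2f8 at 5.18, 9.14, 11.9 and 9.38 CPM (2.30, 1.82 to 2.91). Fbxo5, the inhibitor of the anaphase-promoting complex also called EMI1, was at 15.1, 22.2, 25.3 and 27.6 CPM, with a ratio of 1.67 (1.44 to 1.94).

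Of the 11 licensing and helicase genes, 5 were at least 1.5-fold higher with AngII and all had ratios above 1. Cdc6, the loading factor for the MCM helicase (chr11:98907801-98923940), was at 5.31 CPM in tag 1, 6.81 in tag 2, 13.2 in tag 3 and 7.57 in tag 4. Its ratio of 2.49 (1.98 to 3.13) was the highest of the group, and tag 3 stood clear of the other 3 tags. The helicase subunits themselves had ratios from 1.27 to 1.82, the lowest for Mcm7, at 38.5, 40.5, 48.9 and 54.0 CPM, and the highest for Mcm2, at 12.0, 17.8, 21.9 and 19.9 CPM. Mcm4 was at 28.6, 41.1, 45.4 and 46.9 CPM (1.58, 1.42 to 1.76). Lower ratios were seen for Gmnn, which encodes the licensing inhibitor geminin, at 43.4, 43.2, 51.8 and 48.1 CPM (1.19, 1.09 to 1.31), and for the GINS subunit Gins2, at 34.3, 36.04, 38.2 and 39.5 CPM (1.11, 0.998 to 1.24).

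Among the 8 genes of polymerases, clamp and Okazaki fragments past the floor, only Pola1 and Rpa2 reached the 1.5-fold limit with AngII. Pclaf, a small PCNA-binding protein gene with the most UMIs of the set (chr9:65890237-65903266), was at 163 CPM in tag 1, 194 in tag 2, 191 in tag 3 and 208 in tag 4, so that its level in tag 3 lay within the interval of tag 2 (1.17, 1.11 to 1.23). Pcna, the clamp itself (chr2:132249162-132253314), was at 65.7, 75.8, 86.9 and 83.5 CPM (1.32, 1.23 to 1.43), and Pola1 at 28.3, 39.98, 51.2 and 46.2 CPM (1.81, 1.63 to 2.01). The clamp loader subunit Rfc2 was nearly level, at 29.7, 30.1, 29.8 and 34.4 CPM (1.002, 0.889 to 1.13). Dscc1, a subunit of an alternative clamp loader that acts in cohesion, was under the floor at 2.74, 3.41, 4.08 and 3.35 CPM (66, 19, 61 and 54 UMIs).

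The 4 genes of nucleotide supply did not move together. Rrm2, the regulated subunit of ribonucleotide reductase, was at 37.7 CPM in tag 1, 51.3 in tag 2, 63.7 in tag 3 and 53.4 in tag 4, a ratio of 1.69 (1.54 to 1.85) with AngII. Rrm1, the large subunit of the same enzyme (chr7:102441695-102469771), was at 89.4, 61.9, 89.5 and 62.6 CPM (1.001, 0.934 to 1.07), so that it separated young from old tags and not AngII from untreated cells. Tyms, which makes thymidylate (chr5:30058202-30073617), was the only member with a 3-to-1 interval wholly below 1: it was at 92.5, 65.6, 71.2 and 72.0 CPM (0.770, 0.715 to 0.828). Tk1, the thymidine salvage kinase, was at 19.7, 29.2, 19.6 and 34.5 CPM (0.993, 0.855 to 1.15). Both young tags had the lower Tk1 and the old tags the higher, with no overlap of intervals between them.

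Of the 7 genes of chromatin and histone supply, 5 were at least 1.5-fold higher with AngII and the others had ratios of 1.43 and 1.47. Cdca7, the partner of the remodeller HELLS (chr2:72476159-72486893), was at 3.86 CPM in tag 1, 7.71 in tag 2, 11.7 in tag 3 and 6.83 in tag 4, with a ratio of 3.02 (2.34 to 3.93), the highest of all members past the floor. Hells itself was at 33.3, 45.5, 64.7 and 46.2 CPM (1.94, 1.77 to 2.13). Slbp, whose protein binds the stem-loop of histone mRNAs, was at 51.3, 65.6, 82.4 and 77.9 CPM (1.61, 1.48 to 1.74). The histone chaperone gene Nasp was at 55.3, 61.1, 81.2 and 70.6 CPM (1.47, 1.36 to 1.59), and Atad2, a bromodomain ATPase gene, at 47.3, 57.4, 74.0 and 71.3 CPM (1.56, 1.44 to 1.70). Uhrf1 was at 18.9, 23.8, 34.1 and 30.1 CPM and Chaf1b, a subunit of the chromatin assembly factor CAF-1, at 9.74, 9.86, 13.9 and 12.4 CPM.

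Of the 10 genes of fork protection, repair and cohesion past the floor, 5 were at least 1.5-fold higher with AngII. Exo1, a nuclease of mismatch and break repair, was at 5.72 CPM in tag 1, 7.71 in tag 2, 12.9 in tag 3 and 9.31 in tag 4 (2.26, 1.81 to 2.83). Dtl was at 13.9, 20.8, 27.5 and 21.2 CPM (1.98, 1.71 to 2.30), the checkpoint mediator gene Clspn at 27.4, 33.5, 48.3 and 42.5 CPM (1.76, 1.58 to 1.96), and the deubiquitinase gene Usp1 at 48.1, 46.3, 74.4 and 52.9 CPM (1.55, 1.42 to 1.68). These 4 genes were highest in tag 3, each above the intervals of tags 1 and 2. Tipin, a partner of Timeless at the fork, followed at 56.0, 58.3, 80.2 and 70.5 CPM (1.43, 1.32 to 1.55). Esco2, which acetylates cohesin in S phase, was at 10.4, 14.5, 10.9 and 18.8 CPM (1.04, 0.853 to 1.28). Ung, the uracil-DNA glycosylase gene (chr5:114130386-114139323), was under the floor: it was at 0.622 CPM in tag 1 (15 UMIs), 1.08 in tag 2 (6 UMIs), 4.82 in tag 3 (72 UMIs) and 1.24 in tag 4 (20 UMIs). Its tag 3 interval (3.77 to 6.07) stood above those of the other 3 tags, the ratio to tag 1 being 7.75 (4.40 to 14.6). Of the members not yet described, Brip1 (1.79), Mcm10 (1.71), Rpa2 (1.69) and Mcm3 (1.63) also reached the limit with AngII, and Mcm5, Mcm6, Cdc45, Prim1, Pold3, Fen1, Blm, Wdr76 and Rad51ap1 had ratios from 1.03 to 1.46.

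**Figure D2:**
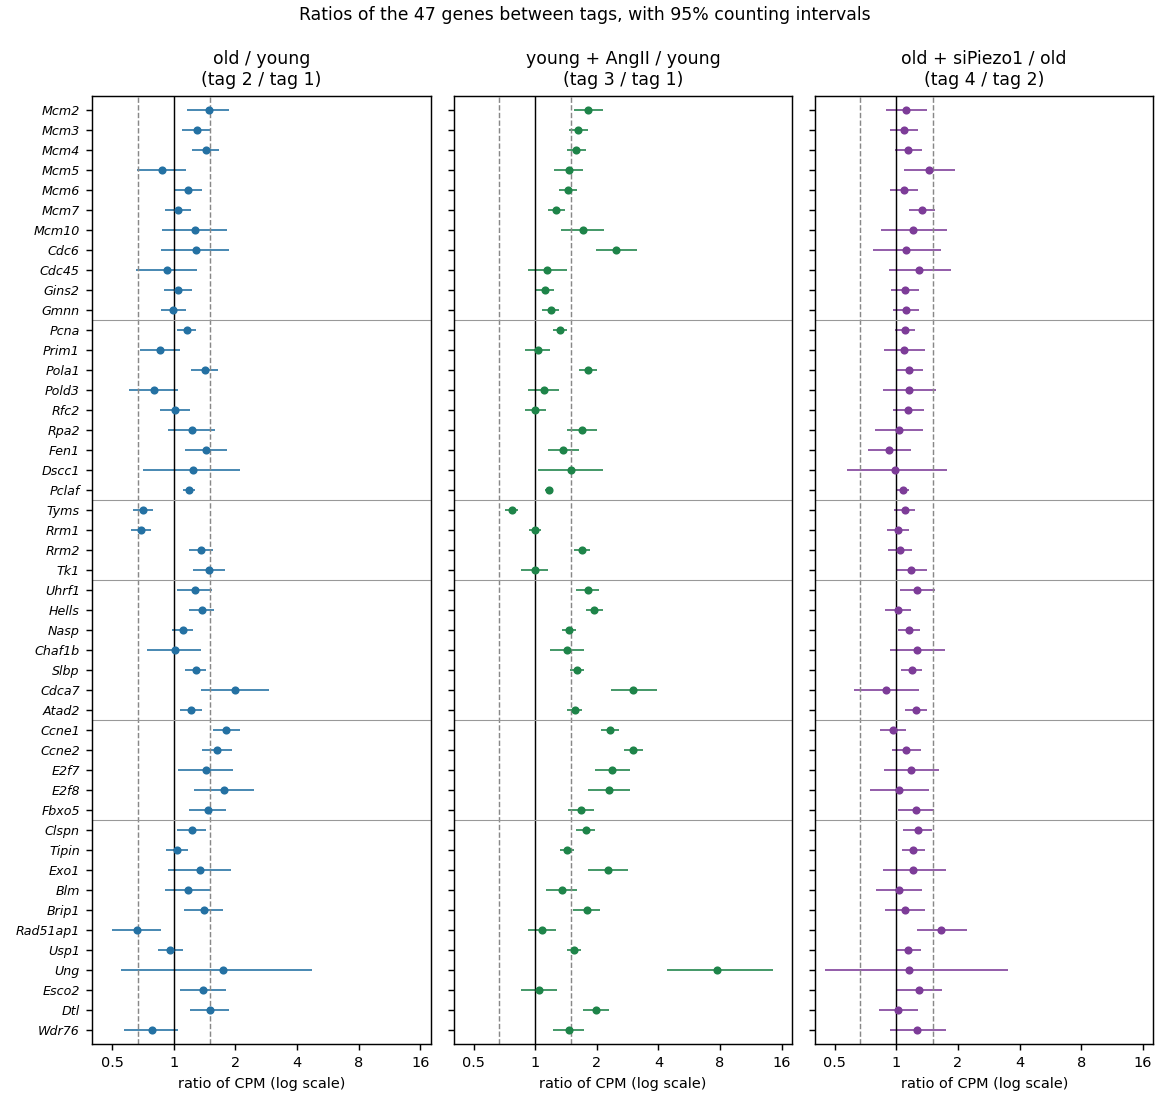
CPM ratio of each gene between tags on a log axis, with 95% counting intervals, for old over young (left), young + AngII over young (middle) and old + siPiezo1 over old (right). Solid lines mark a ratio of 1 and dashed lines 1.5-fold in either direction. In the middle panel 23 members past the floor lay right of the upper dashed line and none left of the lower, and the intervals of 37 of all 47 genes lay above 1.

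Genes of the same process outside the set were described from lists chosen by known role. Of 42 other replication genes past the floor, 10 were at least 1.5-fold higher with AngII and none was lower, with a median ratio of 1.16. Of all genes past the floor, 7.54% were higher and 8.49% lower in this comparison. The highest were Cdc7, the kinase that fires origins, at 2.10 (1.56 to 2.82), and the origin recognition subunit Orc1 at 1.87 (1.49 to 2.35), and the lowest were Pole2 at 0.704 (0.557 to 0.885), Rfc4 at 0.745 (0.641 to 0.863) and Ccna2 at 0.811 (0.698 to 0.940). Of 23 E2F and RB regulators, 4 were higher and 1 lower, the count of lower genes being no more than the background. Ccnd1, the cyclin D1 gene, was at 1.91 (1.86 to 1.95), Cdk2 at 1.67 and Skp2 at 1.66, whereas the CDK inhibitor gene Cdkn1b was at 0.379 (0.310 to 0.461). The G2/M list went the other way: 21 of 49 genes past the floor were at least 1.5-fold lower and none was higher, and its sum was 2825 CPM in tag 1, 2677 in tag 2, 2139 in tag 3 and 2864 in tag 4, a ratio of 0.757 (0.747 to 0.767) with AngII. The lowest were Ccnb2, the cyclin B2 gene, at 0.261 (0.218 to 0.312), the centromere gene Cenpa at 0.367 (0.327 to 0.411) and Hmmr at 0.388 (0.349 to 0.431).

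The AngII-treated cells had a lower mitochondrial share than the young cells, and tag 1 had shallower cells than the other tags, so the sums were also compared in narrower sets of cells. Among cells with a mitochondrial share under 0.5%, the members summed to 1354 CPM (1329 to 1379) in 974 cells of tag 1 and 1832 (1805 to 1859) in 903 cells of tag 3. From 0.5% to 1% the sums were 1410 and 2085 CPM, and from 1% to 3% they were 1326 and 2032 CPM. The level in tag 3 was thus the higher within each of these ranges. Above 3%, 81 cells of tag 1 were at 1258 CPM (1162 to 1360) and 34 of tag 3 at 1371 (1213 to 1545), with overlapping intervals. With every cell thinned to 5000 UMIs the ratio of the sums was 1.42, and in Y-only cells it was 1.43. Leaving out doublet calls, which made up 23.3% of tag 1 and 22.3% of tag 3, gave 1.60 and 30 members at least 1.5-fold higher. Doubling the tag cutoffs gave 1.26 and 15 members. No share of all genes past the fold is given for these sets of cells, so the counts lack a background. The epithelial markers Perp and Upk1b, which were higher in tag 3 than in tag 1, move with this result, their list summing to 17.0 and 44.8 CPM, and their part in it was not tested.

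To compare ages, tag 2 was set against tag 1, the same control cells as in the AngII comparison. Of the 45 members, 4 were at least 1.5-fold higher in old VSMCs and 1 was lower, where 9.48% of all genes were higher and 10.9% lower. At the main settings the count of higher members is close to the background and is no result about the set. With other cells counted it differed, as given below. The median ratio of the members at the main settings was 1.23, against 1.02 over all genes, and the summed ratio was 1.13 (1.11 to 1.16). The higher genes were Cdca7 (1.9996, 1.36 to 2.90), Ccne1 (1.81, 1.55 to 2.10), E2f8 (1.76, 1.25 to 2.46) and Ccne2 (1.63, 1.38 to 1.93), so that 3 of the 5 genes of S phase entry reached the limit. The lower gene was Rad51ap1, a gene of recombinational repair (chr6:126923050-126939587), at 16.5 CPM in tag 1, 10.9 in tag 2, 17.9 in tag 3 and 18.1 in tag 4 (0.661, 0.496 to 0.867).

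Nucleotide supply again split in the old cells. Tyms (0.709, 0.634 to 0.793) and Rrm1 (0.692, 0.616 to 0.776) were lower than in young cells, whereas Rrm2 (1.36, 1.19 to 1.55) and Tk1 (1.48, 1.23 to 1.78) were higher. Within licensing, ratios ran from 0.876 (0.659 to 1.15) for Mcm5, at 13.1, 11.5, 19.2 and 16.5 CPM in tags 1 to 4, to 1.48 (1.16 to 1.86) for Mcm2. In the polymerase group they ran from 0.8004 (0.6003 to 1.05) for Pold3, a subunit of polymerase delta at 13.9, 11.1, 15.3 and 12.8 CPM, to 1.44 (1.14 to 1.82) for Fen1, the flap endonuclease gene, at 12.2, 17.6, 16.7 and 16.1 CPM. Fork protection ended just under the limit with Dtl at 1.498 (1.20 to 1.85). Among related genes, 5 of 42 other replication genes were higher and 2 lower, with Timeless at 1.66, Gins1 at 1.65, and Wdhd1 at 0.497, Pole2 at 0.657 and Rnaseh2b at 0.710. Of 23 E2F and RB regulators 1 was higher, Ccnd2 at 1.62, and 2 lower, Cdkn1b at 0.523 and Cdkn2c at 0.6004, and of 49 G2/M genes none was higher and 6 were lower, led by Cdc25c at 0.590. Against the shares of all genes given above, these counts are close to the background or below it.

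The old over young sums turned direction with the make-up of the cells counted. Without doublet calls the ratio was 1.20, with 16 members higher and 3 lower. At mitochondrial shares of 1 to 20% it was 1.20, with 12 higher and 2 lower. Among Y-only cells (1700 in tag 1 and 97 in tag 2) it was 0.883, with 2 members higher and 8 lower. The share of all genes past the fold is given only at the main settings, so these counts are no result about the set. Among cells with a mitochondrial share under 1% the ratio was 0.997. Age therefore cannot be told apart here from the make-up of the stocks or from the assignment of cells to tags. Of the individual genes, Tyms (0.452 to 0.739) and Rrm1 (0.459 to 0.794) stayed below 1 and Ccne1 (1.49 to 2.08) and Ccne2 (1.34 to 2.30) above 1 in each of the 12 alternative settings computed for single genes. Dtl (1.14 to 1.71), E2f8 (1.02 to 2.49), Hells (1.08 to 1.57), Slbp (1.11 to 1.43), Tk1 (1.07 to 1.72) and, under the floor, Ung also stayed above 1.

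The cells labelled siPiezo1 (tag 4) were compared with the old cells (tag 2), which also serve as the old side of the age comparison. Here 1 of 45 members was at least 1.5-fold higher, where 2.81% of all genes were, and none was lower, where 1.61% were. The median ratio of the members was 1.14, against 1.02 over all genes, and the summed ratio 1.13 (1.10 to 1.16). The gene past the limit was Rad51ap1 (1.66, 1.25 to 2.22), which was lower in tag 2 than in the other 3 tags. With doubled tag cutoffs its ratio was 0.847. The other members had ratios between 0.886 (0.617 to 1.29) for Cdca7 and 1.44 (1.09 to 1.92) for Mcm5, and 35 of the 47 counting intervals included 1, the remaining 12 lying above it. By group the extremes were Mcm6 (1.09) and Mcm5 for licensing, Fen1 (0.919) and Pola1 (1.16) for polymerases, Rrm1 (1.01) and Tk1 (1.18) for nucleotides, Cdca7 and Uhrf1 (1.26) for chromatin, Ccne1 (0.957) and Fbxo5 (1.24) for S phase entry, and Dtl (1.02) and Rad51ap1 for fork protection. No gene past the floor of the other replication, regulator or G2/M lists reached 1.5-fold in either direction, while E2f2 (1.64) and Nek2 (1.51), under the floor, did. The outermost of the 3 lists were Pola2 at 0.742, Lin9 at 0.921 and Kif2c at 0.783 on the low side and Cdc7 at 1.42, Cdkn2c at 1.46 and Cdc25c at 1.41 on the high side. The sum for the members was 0.922 of that in old cells among Y-only cells.

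A higher level per tag can come from more cells that express the genes or from more transcripts in each of them. The summed UMIs of the 47 genes were therefore counted in single cells, each thinned to 5000 UMIs, which kept 2397, 476, 1364 and 1415 cells of tags 1 to 4 and left out 747, 21, 136 and 114 shallower ones. The median cell had 4, 3, 5 and 3 such UMIs and the 90th percentile was 17, 21.5, 24 and 24. None of the 47 was seen in 7.80%, 11.8%, 6.38% and 11.6% of cells. A cell was called high with at least 12 UMIs, the 75th percentile over all 5652 thinned cells. This held for 20.3% of tag 1 (18.7 to 22.0), 23.7% of tag 2 (20.0 to 27.8), 33.0% of tag 3 (30.5 to 35.6) and 27.3% of tag 4 (25.04 to 29.8). Tag 3 stood above the other intervals. Of all these cells, 10.1% lay within 2 UMIs of the limit, which is a percentile. Whether high cells form a separate type was not tested.

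**Figure D3:**
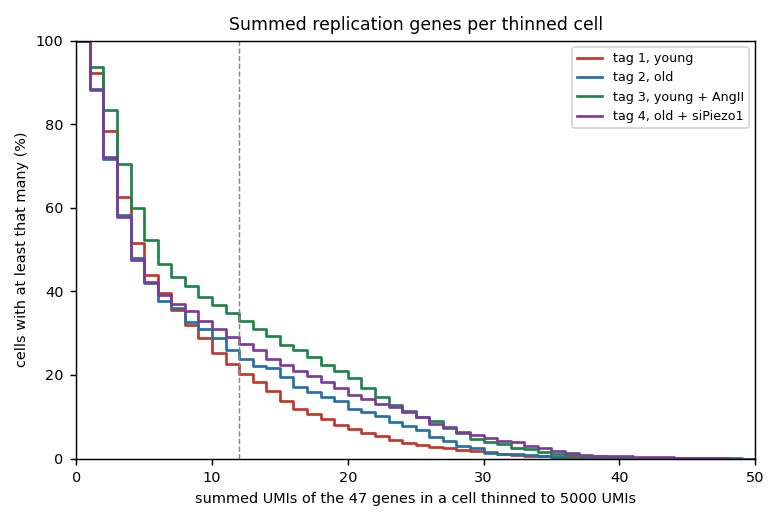
Percent of thinned cells (y axis) with at least a given number of summed UMIs of the 47 genes (x axis), by tag; the dashed line is the limit of 12 UMIs. At the limit tag 3 was at 33.0%, tag 4 at 27.3%, tag 2 at 23.7% and tag 1 at 20.3%. Farther right the curves of tags 3 and 4 crossed, and at 30 UMIs tag 4 was at 5.02% and tag 3 at 3.96%.

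For single genes, the share of thinned cells with a UMI followed the levels. Ccne2 was seen in 7.97% of tag 1 (6.92 to 9.13), 10.9% of tag 2 (8.27 to 14.1), 20.0% of tag 3 (17.9 to 22.2) and 13.3% of tag 4 (11.6 to 15.2). Without thinning these shares were 10.3%, 18.5%, 29.2% and 19.2%. Pcna was seen in 25.7%, 27.9%, 32.3% and 28.3% of thinned cells, and in 33.3%, 40.2%, 45.7% and 42.6% without thinning. Pclaf, by contrast, was seen in 34.7%, 31.7%, 34.2% and 33.3% of thinned cells, shares whose intervals all overlapped. Ung was seen in 0.375%, 0.630%, 2.13% and 0.565%, the tag 3 interval (1.43 to 3.04) lying above the others except that of tag 2 (0.130 to 1.83).

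The members and the G2/M genes were then read together in each cell, a cell being high in G2/M genes with at least 18 of their UMIs (again the 75th percentile). The clearest difference with AngII was in cells high in the replication genes and not in the G2/M genes. They made up 3.25% of tag 1 (2.58 to 4.04), 5.46% of tag 2 (3.60 to 7.90), 16.6% of tag 3 (14.6 to 18.7) and 6.01% of tag 4 (4.83 to 7.37). Cells high only in G2/M genes made up 12.8% (11.5 to 14.3), 6.51% (4.47 to 9.12), 2.20% (1.49 to 3.13) and 4.81% (3.75 to 6.05). Cells high in both were 17.1%, 18.3%, 16.4% and 21.3%, and cells low in both 66.8%, 69.7%, 64.8% and 67.8%. Of the cells high in the replication genes, 50.2% in tag 3 (45.5 to 54.9) were under the limit for G2/M genes, compared with 16.02% in tag 1 (12.9 to 19.6). These cells still had a mean of 12.0 G2/M UMIs in tag 3 and 12.7 in tag 1, against 5.33 and 4.83 in cells low in both.

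**Figure D4:**
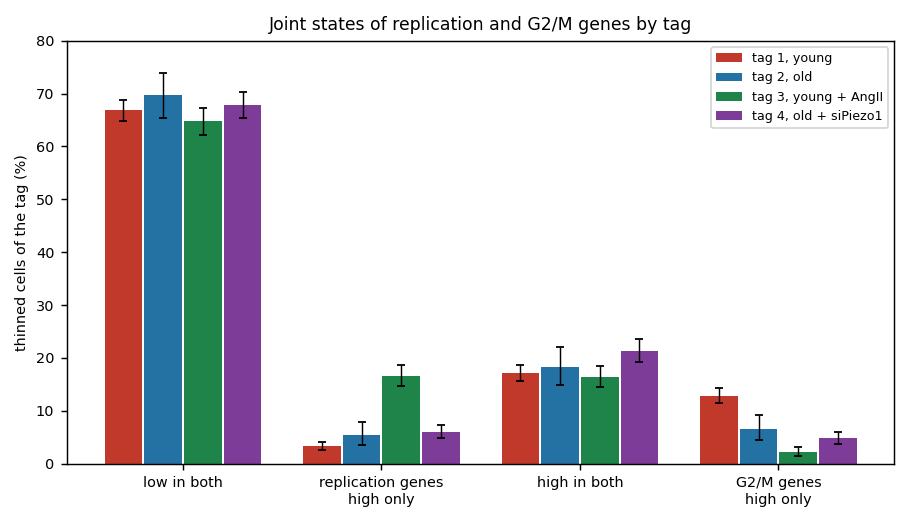
Share of thinned cells of each tag (y axis, percent, with exact Clopper-Pearson 95% intervals) in 4 joint states of the 47 replication genes and the G2/M genes. At the main tag cutoffs, cells high only in the replication genes were 16.6% of tag 3 and at most 6.01% of the other tags. Cells high only in G2/M genes were 12.8% of tag 1 and 2.20% of tag 3.

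Doublet calls were uneven over these states. They made up 62.8% of the tag 1 cells high only in the replication genes, 57.7% in tag 2, 25.2% in tag 3 and 47.1% in tag 4, and 70.0% of the 30 tag 3 cells high only in G2/M genes. With the calls left out, cells high only in the replication genes were 1.66%, 2.97%, 16.2% and 4.02% of tags 1 to 4, the difference between tags 3 and 1 being larger than with them. With tag cutoffs doubled, which left 128 cells in tag 2 before thinning, such cells made up 14.2% of tag 2 and 14.7% of tag 3. The difference between tags 3 and 2 thus depended on the cutoffs. Within mitochondrial shares under 0.5%, from 0.5% to 1% and from 1% to 3%, they were 15.4%, 22.2% and 17.4% of tag 3 and 4.26%, 3.78% and 2.54% of tag 1.

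Each member was also read against the sum of the other 46, so that it did not choose its own cells. Over the 5652 thinned cells, which share a library, its depth and its free RNA, Pearson's r ran from 0.111 for Ung to 0.668 for Pclaf. Cells high in the others were set against cells low in both the others and the G2/M genes, which leaves out cells high only in G2/M genes. All 47 were higher in the former, by 3.26-fold for Rrm1 up to 30.3-fold for Fbxo5 and Esco2. The members were chosen as genes of 1 process, and no share of all genes is given for these cells. The count is therefore no test of the set. Genes named in the rest of this comparison were picked after their values were seen. In the old tags 2 and 4, which do not enter the AngII ratio, the level in cells high only in the other replication genes was divided by that in cells high only in G2/M genes. Ccne2 was at 149 and 12.0 CPM (93 and 5 UMIs), 12.4 times higher (5.11 to 38.9). For Cdc6 and E2f7 the ratios of 15.3 (2.40 to 640) and 18.9 (3.04 to 782) rested on 1 UMI in the latter cells. At the other end, Tk1 was at 28.8 and 79.2 CPM (0.364, 0.191 to 0.661) and Pclaf at 296 and 433 CPM (0.682, 0.561 to 0.829). Of these 2 kinds of cells, Ccne2 was thus higher in those under the G2/M limit and Tk1 and Pclaf in those over it. The ratio leaves out the cells high in both, which held most of the Ccne2 UMIs of tags 2 and 4 (215, against 27 in cells low in both), and cells high only in the replication genes still had a mean of 10.8 G2/M UMIs in tag 2 and 11.8 in tag 4.

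Members with a higher value of this ratio tended to have the higher AngII ratios. Over the 45 members past the floor, Pearson's r between the 2 measures on log scales was 0.747 and Spearman's rho 0.791, given as a description over genes of 1 library that are not independent. The median AngII ratio was 1.80 for the 22 members above the median of the first measure and 1.27 for the other 23. With the first measure taken from tag 1 itself, r was 0.699. For the age ratio r was 0.313 and rho 0.433, and with the first measure from tag 1 they were 0.478 and 0.480. The median age ratio was 1.36 for the 22 members above the median of the first measure in tags 2 and 4 and 1.05 for the other 23. For siPiezo1 r was -0.043, and -0.099 with the first measure from tag 1. Tag 3 had more cells high only in the replication genes than tag 1 and fewer high only in G2/M genes. The relation with the AngII ratio is therefore not separate from the shares of these states. Within joint states, the median AngII ratio of the members was 1.34 in cells low in both, 1.36 in cells high only in the replication genes, 1.44 in cells high in both and 1.09 in cells high only in G2/M genes, of which tag 3 had 30. Ccne2 was 1.86 (1.22 to 2.83), 1.54 (1.13 to 2.13) and 2.58 (2.06 to 3.24) times as high in the first 3 of these states. The states are wide and the tags were not matched within them. Mean summed UMIs of the members in these states were 3.41, 19.2 and 23.7 in tag 3 and 2.83, 17.0 and 18.8 in tag 1. Level per cell and number of cells were therefore not separated.

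**Figure D5:**
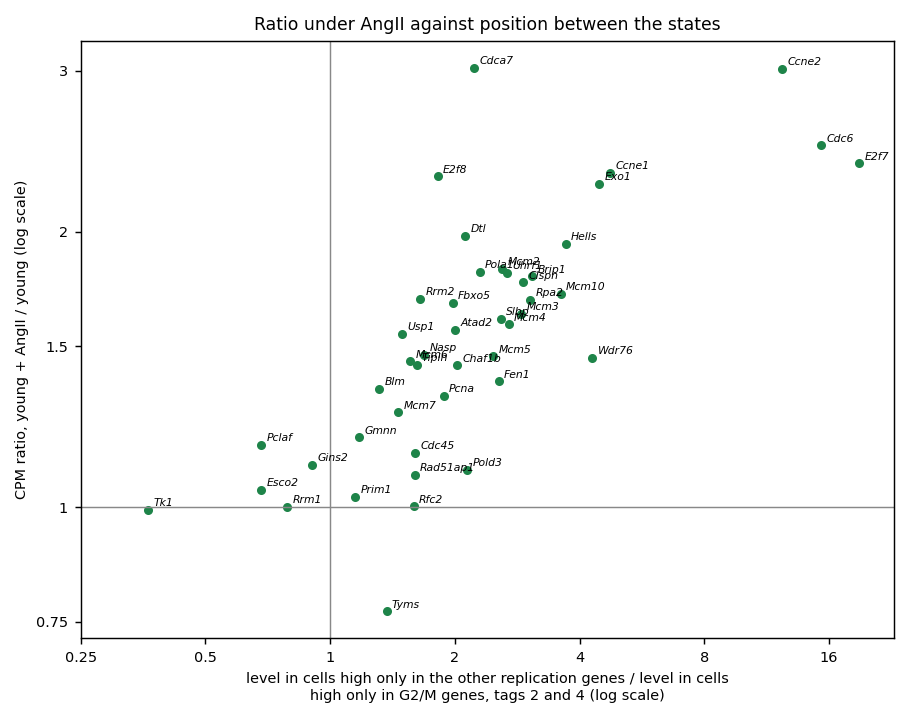
AngII over young CPM ratio of the 45 members past the floor (y axis, log scale) against their level in cells high only in the other replication genes divided by that in cells high only in G2/M genes, in tags 2 and 4 (x axis, log scale); lines mark 1. Ccne2, Cdc6 and E2f7 lay at the upper right, Tk1 at the far left with a ratio of 0.993, and Tyms lowest at 0.770.

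The 10 members with an E2F match in the 250 bases before the start had a median AngII ratio of 1.87 (1.27 to 3.02). The 25 members past the floor with a promoter and no match there had 1.46 (0.770 to 2.32). Of the latter, Pclaf, Clspn, Mcm3 and Pold3 held a match once the bases just after the start were included. The ranges overlapped over most of their length. Mcm7, Mcm6, Uhrf1, Pola1, Hells and Dtl, whose windows are printed above, were at 1.27, 1.44, 1.80, 1.81, 1.94 and 1.98.

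Among the other genes with a mean of at least 0.1 UMI in a thinned cell, the 10 that went most with the summed members over the 5652 thinned cells were Top2a (Pearson's r 0.605), Hmgb2 (0.601), H2afz (0.549), Stmn1 (0.520), Birc5 (0.514), Dek (0.512), Diaph3 (0.508), Smc2 (0.499), Ube2c (0.478) and Cdk1 (0.475). Of these, 5 are in the G2/M list. Their ratios with AngII ran from 0.438 for Ube2c to 1.07 for Dek, each under the median of 1.55 of the members. Dek and Diaph3 (1.06) were above 1 and the others below it. Top2a, the decatenating topoisomerase gene, was at 140 CPM in tag 1 and 123 in tag 3. Ube2c, a ubiquitin-conjugating enzyme gene of mitotic exit, was at 162 and 71.0 CPM.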

How the data were processed

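Cultured VSMCs of 4 groups were hashed with TotalSeq-A antibodies and sequenced as 1 library. The values are raw UMI counts as deposited by the authors, made with Cell Ranger 4 per the file headers, for 32285 genes and 4 tags over 2472397 barcodes. Seurat is also named in the submitters' processing notes. The sources used here do not name the build used for counting. Gene coordinates come from GENCODE vM21 (GRCm38), in which all 47 identifiers matched, and promoters from RefSeq (GRCm38.p6). No RefSeq promoter was matched for Mcm4, Gins2, Gmnn, Rfc2, Dscc1, Atad2, Ccne2, Tipin, Exo1, Usp1 and Esco2.

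Cells had at least 200 genes and 2218 UMIs, which is the 99th percentile among the 10000 deepest barcodes over 10. A cell belonged to a tag if only that tag exceeded its cutoff (36, 52, 61 and 41 UMIs for tags 1 to 4). No filter on mitochondrial UMIs was set. Doublets were marked with Scrublet (scanpy 1.11.5, expected rate 0.1), which called 3057 cells (23.4%), far above that rate; they were kept except where stated. UMIs were summed per tag and scaled to CPM. A ratio was counted from 1.5-fold, over the 10263 genes with a mean of at least 5 CPM over the 4 tags. Thinning drew 5000 UMIs per cell without replacement. Intervals at 95% were computed with SciPy 1.17.1. Those for ratios were tried on simulated Poisson counts, which hold no spread between cells and so cannot show their coverage in these data. Groups were not tested against each other, since cells of 1 culture are no replicates. The total of the 13045 cells was 115033686 UMIs, between 5577355 (tag 2) and 24120561 (tag 1) per tag.

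The members and lists were chosen with earlier results of these data known. Named with values are, in each of 6 role lists, the 3 members with the most UMIs and those with the largest ratio each way in each comparison, and the members under the floor; Hells and Uhrf1 are added for their promoters. Related lists are given by counts, with at most 3 genes at each end, of which some are not reported here, and the genes most like the summed members are the 10 with the highest Pearson r. Alternatives were other cell floors, tag rules, doublet removal, mitochondrial ranges, thinning, scalings, cells by Xist and Y-linked transcripts, and another limit for high cells.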

Additional observations from a re-analysis of the deposited data

Results flagged for a closer look

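Signals were seen in cells that enter no comparison between groups. The 5307 cells without a tag above its cutoff summed to 1905 CPM for the 47 genes, above the 1347 CPM of the young cells, and 33.6% of their thinned cells were high in the set (32.1 to 35.1), compared with 20.3% of tag 1. The 1068 cells with several tags summed to 1667 CPM. Of their 997 thinned cells, 12.9% (10.9 to 15.2) were high only in the replication genes, compared with 16.6% of tag 3. Doublet calls made up 72.9% of those cells. In the cells without a tag above its cutoff this share was 7.72% (6.91 to 8.60). The groups of all these cells are not known, and no explanation was tested.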

How the results depend on the processing

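In this section, counts of members past 1.5-fold have no share of all genes beside them. That share is given only at the main settings, so such counts are no results about the set. Higher replication genes with AngII held under every alternative run, with summed ratios from 1.26 to 1.60. There were 15 to 30 members at least 1.5-fold higher and none 1.5-fold lower. The summed ratio was 1.36 with a floor of 5000 UMIs per cell, 1.38 when divided by the median ratio of all genes, 1.51 at mitochondrial shares of 1 to 20% and 1.37 under 1%, 1.46 without cells holding both Xist and Y-linked UMIs, 1.60 without doublet calls and 1.26, with 15 members higher, with tag cutoffs doubled. There Gmnn turned to 0.977. Across the settings Rad51ap1, Esco2 and Rrm1 fell below 1 at their lowest, and Tk1 rose above 1 at its highest. The age and siPiezo1 sums depended on the cells counted, and the cause was not tested. For old over young the sum was 1.09 with the floor of 5000 UMIs, 1.09 after thinning (2 members lower), 1.20 at mitochondrial shares of 1 to 20% (12 higher and 2 lower) and 1.20 without doublet calls (16 and 3). With doubled cutoffs 8 were higher and 3 lower, and without cells holding both kinds of transcript 7 and 2. It was 1.0003 where a tag had to be 3 times the next (4 lower) and turned to 0.997 at mitochondrial shares under 1% (2 higher and 2 lower) and to 0.883 in Y-only cells (2 and 8), with a median ratio of 0.915. Single genes turned too: E2f7 to 0.911, Mcm2 to 0.887 and Pclaf to 0.981 under 1% mitochondrial share; Cdca7 to 0.871, Esco2 to 0.864, Pclaf to 0.840, Pcna to 0.940 and Rrm2 to 0.754 in Y-only cells; E2f7 to 0.905, Pclaf to 0.860 and Pcna to 0.999 where a tag had to be 3 times the next; and Rad51ap1 to 1.13 with doubled cutoffs. Cdc6 and Exo1 also turned, to 0.925 and 0.624 at their lowest, and Mcm5 and Gmnn to 1.12 and 1.04 at their highest. For siPiezo1 over old the sum was 1.19 under 1% mitochondrial share (11 members higher), 1.25 where a tag had to be 3 times the next (7 higher and 1 lower), and 1.06 with doubled cutoffs (3 and 1). In Y-only cells it turned to 0.922 (2 and 3), with a median of 0.996. The count higher was 3 without doublet calls, 2 without cells holding both kinds of transcript and 4 after thinning. Esco2 turned to 0.978 under 1% mitochondrial share, and in Y-only cells Esco2 to 0.996, Pclaf to 0.741 and Slbp to 0.929; with doubled cutoffs Mcm5 turned to 0.975, Rad51ap1 to 0.847 and Slbp to 0.972. Other members turned as well for siPiezo1, among them Dtl to 0.679 and Cdc6 to 0.747 at their lowest. The share of cells high in the members, with the limit at the 66.7th percentile, was 32.0%, 32.6%, 41.3% and 35.3% in tags 1 to 4. Without doublet calls it was 18.1% in tag 1, and in Y-only cells 14.4% in tag 2 and 13.8% in tag 4. The share of cells high only in the replication genes rose to 14.2% in tag 2 with doubled cutoffs, near the 14.7% of tag 3. The range of mitochondrial share under 1% was chosen after seeing the data, as were the alternatives for the joint states. Tag 2, with 497 cells, limits the precision of both comparisons that use it. No paired analysis was possible because the groups are single cultures with no replicate numbers.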
